A study of Homo sapiens with 4 samples.

Results

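In cultures of human colonic epithelial cells, the cells with the highest share of their mRNA from genes of G2 and mitosis were taken from each library and compared with the other cells of the same library. HCEC 1CT is a line of colonic epithelial progenitor cells immortalised with TERT and CDK4, and the cells had been transduced either with an shRNA against APC (shAPC), the tumour suppressor of the Wnt pathway, or with a scrambled control (shScramble, here shScr). All cells were kept under puromycin after transduction in a medium with EGF, hydrocortisone, insulin, sodium selenite, transferrin and FBS, and were harvested 3 or 7 days later for droplet 3′ single-cell RNA-seq. The 4 libraries, 1 for each shRNA on each day, gave 1 library per group, so no difference between shRNAs or days had a replicate and none was tested. The question asked of the shRNA comparison was what loss of APC changes in progenitor cells, and here it was asked of the cells highest in mitotic mRNA.

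Cells were barcodes with at least 2000 genes detected in which the 13 mitochondrial genes took under 5% of the UMIs, which kept 3212 of 9205 deposited barcodes. For each cell, the share of UMIs from 6 genes (CCNB1, PLK1, CDC20, CENPF, AURKA and HMMR) was taken, and the cells were chosen by this share: the highest 10% of each library were taken. These G2/M-high cells were 76 of 765 in shScr day 3, 58 of 581 in shAPC day 3, 94 of 942 in shScr day 7 and 92 of 924 in shAPC day 7, or 320 in all. The rule fixes their number at 10% of each library, so the share of such cells says nothing about how many cells divided. Because the same cells' mRNA chose them, every difference between G2/M-high and other cells is a description without a test. Cells of 1 library share their culture and preparation and are not replicates of a condition.

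In G2, cyclin B accumulates and binds the kinase CDK1, and when this kinase becomes active the chromosomes condense, the nuclear envelope opens and the spindle forms. The spindle checkpoint holds the anaphase-promoting complex, an ubiquitin ligase unrelated to the APC tumour suppressor, until all kinetochores are attached. The complex with CDC20 then marks securin and cyclin B for destruction, and cytokinesis follows. Many of these genes are silenced in G1 by the DREAM complex, which binds their promoters at a short element called CHR. The sequence TTTGAA is a form of CHR and the only form searched here. In G2 the genes are switched on by the B-MYB, MuvB and FOXM1 proteins, often together with NF-Y, which binds CCAAT. In a dividing epithelium these genes mark the progenitor compartment.

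The promoters of the genes that chose the cells are shown because they carry these elements. RefSeq windows (GRCh38.p14, from 250 bases before to 50 after a gene's start, the first window listed for each gene) were matched for 5 of the 6 genes, and AURKA was not matched. The 150 bases that end at the base before the start are printed 5′ to 3′, with TTTGAA and CCAAT, read on either strand, in capitals. All 5 genes lie on the + strand: CCNB1 (cyclin B1, partner of CDK1) at chr5:69167000-69167149, PLK1 (polo-like kinase, which drives mitotic entry and spindle assembly) at chr16:23678739-23678888, CDC20 (activator of the anaphase-promoting complex) at chr1:43358831-43358980, CENPF (a protein of the outer kinetochore) at chr1:214603045-214603194 and HMMR (a spindle-associated protein) at chr5:163460482-163460631.
CCNB1: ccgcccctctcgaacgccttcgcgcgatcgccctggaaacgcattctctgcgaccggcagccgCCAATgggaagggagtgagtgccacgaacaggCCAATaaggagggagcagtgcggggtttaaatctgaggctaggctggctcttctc
PLK1: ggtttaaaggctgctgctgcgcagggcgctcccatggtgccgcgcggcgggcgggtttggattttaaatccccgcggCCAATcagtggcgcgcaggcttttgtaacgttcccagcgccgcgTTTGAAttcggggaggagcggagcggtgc
CDC20: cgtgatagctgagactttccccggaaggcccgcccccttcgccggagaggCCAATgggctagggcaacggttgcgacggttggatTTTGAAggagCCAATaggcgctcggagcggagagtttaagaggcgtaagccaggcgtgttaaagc
CENPF: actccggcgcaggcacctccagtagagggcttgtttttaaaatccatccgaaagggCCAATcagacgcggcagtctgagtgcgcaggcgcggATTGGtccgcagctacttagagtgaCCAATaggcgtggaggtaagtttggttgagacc
HMMR: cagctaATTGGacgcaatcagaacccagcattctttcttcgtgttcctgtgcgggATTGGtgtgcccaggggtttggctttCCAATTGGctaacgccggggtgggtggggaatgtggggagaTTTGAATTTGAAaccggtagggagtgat

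PLK1 held TTTGAA 29 bases before its start, CDC20 65 bases before it and HMMR 28 and 22 bases before it. CDC20 also held the element on the other strand 178 bases before its start, outside the printed stretch. CENPF held TTTGAA 40 bases after its start, outside the printed stretch. The CCNB1 window held no TTTGAA, and other forms of CHR were not searched. Each of the 5 windows held CCAAT. Among all 27305 windows of the table, 15.4% held TTTGAA and 35.7% held CCAAT on either strand, and 6.08% held both. Among 91 genes of 8 lists of mitosis genes outside the rule (CDK1 and G2 cyclins, spindle checkpoint, kinetochore, kinesins and spindle, chromosomal passenger complex, anaphase-promoting complex, chromosome condensation and cytokinesis), 80 were matched, of which 48 (60.0%) held TTTGAA, 56 (70%) held CCAAT and 36 (45%) held both. Of 25 matched DNA replication genes, 17 (68.0%) held CCAAT and 0 held TTTGAA. The CCAAT element was therefore about as common in both gene classes, while TTTGAA was found in mitosis genes and in no first window of the replication genes (1 of the 25 when every listed window of a gene was searched). A match is a description of these letters and no measure of binding.

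The share that chose the cells ran from 0.0642% of UMIs at the cut to 0.253% in shScr day 3, from 0.0664% to 0.250% in shAPC day 3, from 0.0733% to 0.261% in shScr day 7 and from 0.0323% to 0.260% in shAPC day 7. The cut of shAPC day 7 was thus the lowest, and a G2/M-high cell of that library carried a median of 18 UMIs from the 6 genes, against 36 in shScr day 3, 58.5 in shAPC day 3 and 28 in shScr day 7. The fewest such UMIs in a G2/M-high cell were 6 in shScr day 3, 7 in shAPC day 3, 6 in shScr day 7 and 3 in shAPC day 7. The fewest of the 6 genes detected in such a cell were 4, 3, 4 and 2. The highest other cell lay at 0.0637%, 0.0660%, 0.0707% and 0.0323% in the same order. Within 10% of the cut lay 7, 3, 15 and 3 cells inside and 5, 7, 11 and 10 cells outside, so the class is a range of a continuous score and not a separate type. Of all kept cells, 310 (40.5%), 152 (26.2%), 387 (41.1%) and 495 (53.6%) had no UMI from any of the 6 genes.

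**Figure D1:**
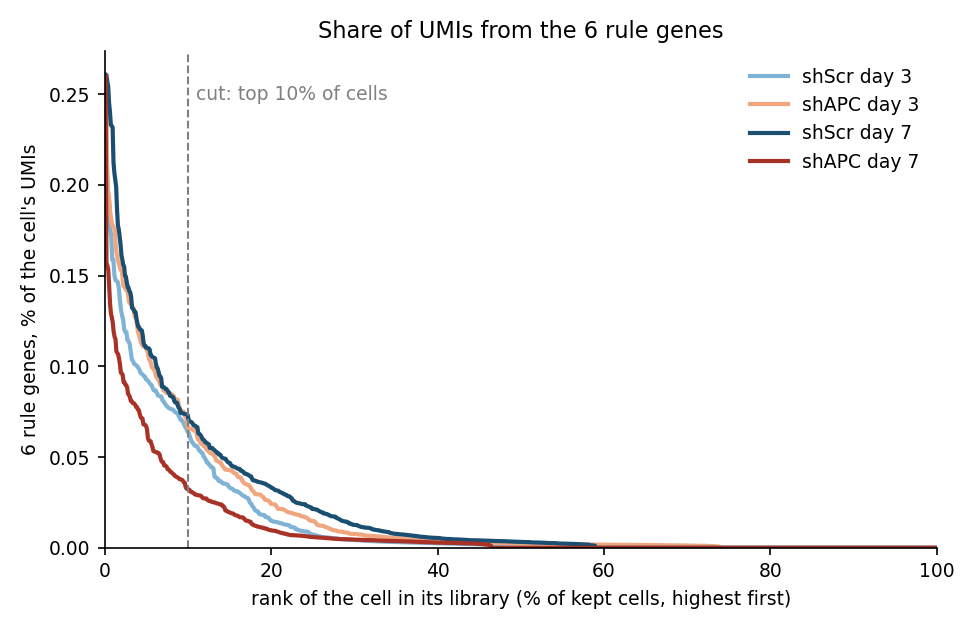
Share of a cell's UMIs from the 6 rule genes, in percent, against the rank of the cell in its library, in percent of kept cells with the highest first; each line is 1 library and the dashed line marks the highest 10%. The share falls without a gap across the cut, and at the cut shAPC day 7 (0.0323%) lies below the other 3 libraries (0.0642% to 0.0733%).

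With 1 cut for all 4 libraries (0.0563% of UMIs, the highest 10% of the pooled cells), the cells over it were 83 of shScr day 3 (10.8%, 95% exact binomial interval 8.73 to 13.3%), 68 of shAPC day 3 (11.7%, 9.20 to 14.6%), 118 of shScr day 7 (12.5%, 10.5 to 14.8%) and 52 of shAPC day 7 (5.63%, 4.23 to 7.31%). After each cell was thinned to 5000 UMIs, which left out 1 cell of shAPC day 3, the shares were 9.93%, 11.7%, 12.2% and 6.71%. The cut was then 0.06% of UMIs, and cells tied in value were taken in barcode order. Among kept cells, the shAPC day 7 library therefore held the smallest share with high mitotic mRNA by both measures, and the intervals cover counting error only. The mitochondrial filter had left out 1220 of its barcodes with at least 2000 genes. It had left out 115 in shScr day 3, 127 in shAPC day 3 and 520 in shScr day 7.

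All 6 rule genes were detected in 61 of 76, 51 of 58, 70 of 94 and 48 of 92 G2/M-high cells, or 80.3%, 87.9%, 74.5% and 52.2%. Among the other cells these shares were 4.35%, 5.93%, 4.25% and 0.361%. The G2/M-high cells had fewer UMIs in 3 of the 4 libraries: their median UMI count was 36680 in shScr day 3 (52551 in the other cells), 52890 in shAPC day 3 (57459), 25648.5 in shScr day 7 (29126.5) and 28506.5 in shAPC day 7 (28188.5). The median mitochondrial share was between 3.55% and 4.05% in G2/M-high cells and between 3.52% and 4.19% in the others. Deposited barcode sequences recurred between libraries 68 times, 2 of them among kept cells and 0 among G2/M-high cells.

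The epithelial markers EPCAM and CDH1 and the leukocyte marker PTPRC had 0 UMIs in the G2/M-high cells of all 4 libraries, which allows up to 3 UMIs in each. PTPRC was 1 of 14 markers of other cell types. Of these, CD68 had 58 UMIs in shScr day 3, 94 in shAPC day 3, 51 in shScr day 7 and 39 in shAPC day 7. None of the rest had over 4 in a library. Of other epithelial genes, KRT7 stood at 77.8, 54.0, 85.2 and 61.5 CPM and the tight junction gene CLDN7 between 7.92 and 16.4 CPM, KRT18 between 1.89 and 7.27, KRT8 between 6.37 and 13.2 and KRT19 between 0.754 and 4.50 CPM (the summed UMIs of the cells scaled to the same total in every class), whereas VIM, a mesenchymal intermediate filament also made by cultured epithelial lines, stood at 4803, 4980, 3948 and 3509 CPM. The defining epithelial markers EPCAM and CDH1 were thus absent at this depth, while KRT7 and CLDN7 were detected. Beside VIM, the mesenchymal cadherin gene CDH2 was detected too, at 12.6, 5.47, 9.95 and 9.43 CPM in the same order. The targeted gene, APC, had 55 UMIs (17.4 CPM) in G2/M-high cells of shScr day 3 and 21 (6.75 CPM) in shAPC day 3, a log2 ratio of -1.36 (95% interval -2.16 to -0.62). At day 7 it had 54 UMIs (21.5 CPM) under shScr and 16 (6.04 CPM) under shAPC, a log2 ratio of -1.83 (-2.74 to -1.01). The other cells gave -1.56 and -1.54, each within the interval of the G2/M-high cells, and APC was lower in the libraries labelled shAPC on both days.

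The rule genes themselves differed between the classes by log2 ratios of 3.50 to 4.70, by construction. CCNB1 stood at 207, 214, 263 and 102 CPM in G2/M-high cells and at 10.0, 17.5, 13.8 and 7.51 CPM in the others; values are listed from here on for day 3 first, then day 7, with shScr before shAPC on each day. CENPF stood at 220, 266, 270 and 213 CPM against 9.15, 15.9, 20.2 and 8.28 CPM. PLK1, CDC20, AURKA and HMMR lay between 76.2 and 245 CPM in G2/M-high cells and between 2.92 and 16.3 CPM in the others. In shAPC day 7, CCNB1, PLK1, CDC20, CENPF and AURKA were at their lowest in both classes, and HMMR in the other cells only. When the cells were ranked on a random part of the UMIs and levels were read from the remaining UMIs, the ratios of the rule genes ran from 3.46 to 4.72.

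Beyond the rule genes, 6136 genes reached 10 CPM over all cells in each library, and 143 of them (2.33%) were at least 2-fold higher in G2/M-high cells in all 4 libraries, on the log2 of CPM + 1, while 23 (0.375%) were at least 2-fold lower. Of any size, 2808 (45.8%) were higher and 832 (13.6%) lower in all 4. Of the 143 genes, 39 belonged to the 8 mitosis lists, 23 to the other lists and 81 to none. Single libraries gave 495 genes higher (7.46%), 234 (3.08%), 463 (6.92%) and 302 (4.5%), and 73 (1.1%), 165 (2.17%), 160 (2.39%) and 81 (1.21%) lower. The median of all genes was itself higher in G2/M-high cells by 0.33, 0.08, 0.22 and 0.23 on the log2 scale.

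Nearly all measured mitosis genes were higher. Of their 91 genes, 48 were measured at 10 CPM in every library, 39 of these were at least 2-fold higher in all 4 libraries and 47 were higher by any size. The median log2 difference was 2.87, 2.62, 2.56 and 2.57, with a mean of 2.66 (SD 0.15 over the 4 libraries), or 2.44 relative to the median of all genes. The other 43 genes were under 10 CPM in at least 1 library, with a median of 873 UMIs over both classes, and all 43 were higher in all 4 libraries. A gene that is low in other cells reaches the 10 CPM level through the G2/M-high cells, so these counts describe the lists and support nothing. No set test was run, because the rule chose cells on genes that move with these lists.

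Among CDK1 and its G2 cyclins, 5 of 5 measured genes were at least 2-fold higher in all 4 libraries. CDK1, the kinase of mitotic entry, stood at 101, 119, 133 and 103 CPM in G2/M-high cells and at 6.32, 10.3, 12.9 and 7.51 CPM in the others. Its log2 ratios were 4.00, 3.54, 3.37 and 3.78, with a 95% interval of 3.75 to 4.26 in the first library and 3.51 to 4.06 in the last (here and for single genes below, log2 of the plain CPM ratio with an exact conditional binomial interval). CCNA2, cyclin A2, stood at 99.9, 111, 119 and 99.2 CPM against 5.76, 10.1, 13.2 and 7.35 CPM. CKS2, a small subunit of CDK complexes, was more abundant, at 566, 510, 805 and 329 CPM against 67.9, 78.6, 101 and 51.5 CPM. CDK1 and CCNA2 varied little between libraries, while CKS2 in shAPC day 7 was below the other 3. CDC25B, a phosphatase that activates CDK1, had log2 ratios of 2.54, 2.22, 2.33 and 2.23.

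In the spindle checkpoint, 3 of 3 measured genes were higher by at least 2-fold in all 4 libraries, and in the kinetochore list 6 of 6. MAD2L1, which inhibits CDC20 at unattached kinetochores, stood at 74.3, 86.2, 61.7 and 56.2 CPM against 9.37, 17.4, 11.3 and 9.98 CPM. BUB3, which also has a role outside mitosis, had the smaller ratios 1.64, 1.39, 1.69 and 1.63. CENPW, a histone-fold kinetochore protein, had 2.78, 2.24, 2.15 and 2.47, and SKA2, a microtubule coupler, had 1.46, 1.21, 1.53 and 1.29. The kinases BUB1 and TTK and the microtubule-binding NDC80 were under the level in the other cells, at 1.18 to 3.87 CPM, and at 16.2 to 54.9 CPM in G2/M-high cells.

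Among kinesins and spindle proteins, 8 of 9 measured genes were at least 2-fold higher in all 4 libraries. The exception was KIF22, a chromokinesin, with ratios of 0.99, 1.01, 1.13 and 0.28. ASPM, a spindle-pole protein, stood at 102, 94.6, 128 and 86.8 CPM against 4.42, 6.88, 10.3 and 4.63 CPM. TPX2, which activates Aurora A on the spindle, stood at 181, 204, 166 and 147 CPM against 13.3, 23.6, 22.1 and 12.9 CPM. NUSAP1, a spindle microtubule-bundling protein, had ratios of 4.08, 3.52, 3.32 and 4.05. For ASPM, TPX2 and NUSAP1, the lowest G2/M-high library was above the highest level of the other cells. BIRC5 (survivin), the only chromosomal passenger gene measured in every library, stood at 253, 300, 291 and 212 CPM against 24.5, 37.1, 42.7 and 23.6 CPM. AURKB, its kinase partner, was under the level and had ratios of 3.85, 3.18, 3.09 and 3.38.

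The anaphase-promoting complex was divided. Of 12 measured genes, 4 were at least 2-fold higher in all 4 libraries, and the median differences were 0.94, 0.53, 0.79 and 0.84. UBE2C, the ubiquitin-conjugating enzyme that starts the chains, stood at 257, 243, 381 and 207 CPM against 14.0, 18.2, 26.6 and 12.4 CPM. UBE2S, which extends them, stood at 739, 578, 891 and 629 CPM against 105, 89.3, 155 and 70.0 CPM. PTTG1 (securin), the substrate whose loss frees separase, stood at 274, 352, 441 and 237 CPM against 40.0, 50.9, 71.6 and 38.4 CPM. By contrast, ANAPC11, the catalytic RING subunit, stood at 398, 380, 519 and 430 CPM against 284, 307, 352 and 288 CPM, with ratios of 0.49, 0.31, 0.56 and 0.58. CDC27 had ratios of 0.90, 0.54, 0.90 and 0.87, and CDC26 had 0.30, -0.12, 0.53 and 0.39, both core subunits. The enzymes that feed the complex and its substrate thus stood 5-fold or more apart between the classes, while these core subunits differed by less than 2-fold.

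Chromosome condensation (6 of 6 genes) and cytokinesis (6 of 6) were higher by at least 2-fold in all 4 libraries. TOP2A, the topoisomerase that untangles sister chromatids, stood at 1048, 1025, 359 and 343 CPM against 49.8, 63.0, 33.8 and 20.1 CPM. Its log2 ratios were 4.40, 4.02, 3.41 and 4.09, and its level in G2/M-high cells was lower at day 7 than at day 3 under both shRNAs. MKI67, the coat protein of mitotic chromosomes, stood at 179, 191, 190 and 157 CPM against 9.76, 16, 22.0 and 10.8 CPM. HMGB2, a chromatin protein, had ratios of 3.88, 2.64, 3.33 and 3.43, and SMC4, the condensin core, had 3.22, 2.74, 2.96 and 2.94. Of the cytokinesis genes, ANLN (anillin, of the contractile ring) stood at 171, 187, 154 and 139 CPM against 11.9, 17.2, 22.6 and 12.2 CPM, and PRC1, which bundles the central spindle, had ratios of 4.00, 3.31, 3.06 and 3.48.

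The 15 genes highest by their smallest ratio over the 4 libraries were UBE2C, ASPM, TOP2A, CDK1, DEPDC1, GTSE1, NUSAP1, CCNA2, MKI67, KPNA2, PBK, CEP55, KIF20B, SGO2 and PRC1. GTSE1, a microtubule-binding protein of G2 and S that restrains p53, had ratios of 4.45, 3.54, 3.39 and 3.72. KPNA2, an importin that carries spindle factors, stood at 414, 445, 374 and 232 CPM against 42.5, 52.5, 42.3 and 28.6 CPM. CEP55, of the abscission machinery, had ratios of 3.94, 3.47, 3.01 and 3.81. SGO2, which guards cohesin at centromeres, had 3.80, 3.47, 3.59 and 3.05.

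Of the transcription factors of mitotic genes, FOXM1 stood at 70.5, 91.0, 67.3 and 77.3 CPM against 9.12, 12.8, 14.4 and 9.38 CPM, with ratios of 2.95, 2.83, 2.22 and 3.04. E2F4, the repressor subunit of DREAM, stood at 41.7, 56.3, 39 and 42.2 CPM against 25.4, 32.8, 24.6 and 22.3 CPM. The activator was therefore 4-fold or more apart between the classes, and the repressor subunit less than 2-fold.

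**Figure D2:**
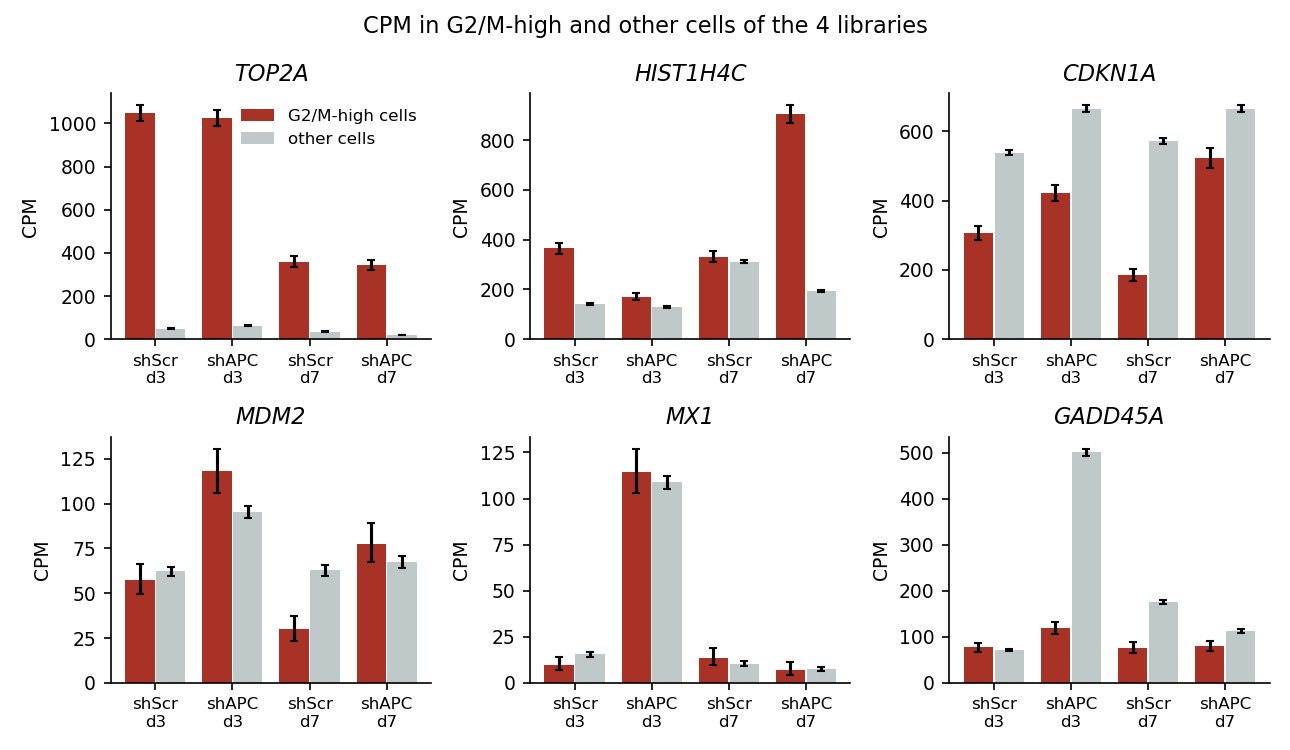
Levels in CPM of TOP2A, HIST1H4C, CDKN1A, MDM2, MX1 and GADD45A in G2/M-high cells (red) and other cells (grey) of each library; bars are levels of summed UMIs and error bars 95% Poisson intervals for counting error only. TOP2A is higher in G2/M-high cells of all 4 libraries and CDKN1A lower, most in shScr day 7 (185 against 572 CPM), while GADD45A has its highest level among those shown in the other cells of shAPC day 3 (501 CPM).

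Structural genes of the cytoskeleton and nucleus moved in part. Of 8 tubulins, 4 were at least 2-fold higher in all 4 libraries. TUBA1B, a main alpha-tubulin, stood at 2385, 2144, 2424 and 1376 CPM against 1156, 1007, 1169 and 537 CPM. TUBB4B, a beta-tubulin, had the larger ratios 2.21, 1.84, 2.24 and 1.93, whereas TUBA1A had 0.32, -0.22, 0.22 and 0.13. Of 6 nuclear envelope genes, 3 were higher by at least 2-fold in all 4 libraries, among them TMPO, a lamina-associated protein, with ratios of 3.13, 2.62, 2.30 and 2.92. LMNA, the gene of lamins A and C, was not among them and had ratios of 0.92, 0.38, 1.07 and 0.57.

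Genes of S phase were higher too, to a lesser extent. All 7 measured DNA replication genes and 5 of 7 nucleotide synthesis genes were at least 2-fold higher in all 4 libraries, with median differences of 2.33, 1.81, 1.63 and 1.83 for replication. PCNA, the sliding clamp, stood at 135, 127, 98.7 and 101 CPM against 30.0, 42.5, 34.3 and 34.3 CPM. MCM7, of the replicative helicase, had ratios of 2.60, 1.85, 1.91 and 1.84. RRM2, the small subunit of ribonucleotide reductase, had 3.00, 2.33, 2.25 and 2.80, and TYMS, thymidylate synthase, had 2.60, 2.30, 2.06 and 2.13. GMNN (geminin), an inhibitor of origin licensing that is present through S and G2, had 2.92, 1.45, 1.89 and 2.16.

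The classes of S and G2/M overlapped. When the 10% of cells highest in DNA replication genes were taken in each library, they included 35 (46.1%), 17 (29.3%), 20 (21.3%) and 28 (30.4%) of the G2/M-high cells. The median share of UMIs from replication genes was 0.0774%, 0.0756%, 0.0705% and 0.0638% in G2/M-high cells and 0.00849%, 0.0127%, 0.0110% and 0.00985% in the others. It reached 0.115%, 0.123%, 0.113% and 0.106% in the cells highest in replication genes. The rule thus took cells with mRNA of both phases as well as cells in G2 and mitosis. Without the overlapping cells, the mean of the median differences was 2.36 for mitosis genes and 1.36 for replication genes.

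Along the ranking, mitosis and replication genes followed different courses. The 8 mitosis lists summed to 10648, 10803, 11732 and 9010 CPM in the highest 5% of cells, 8566, 8478, 8856 and 5618 CPM in the next 5%, 4920, 5593, 6137 and 3888 CPM in cells ranked 10 to 20%, and 971, 1079, 1120 and 967 CPM in cells at 0. DNA replication genes varied less over the same cells, with 899, 863, 817 and 782 CPM in the highest 5%, 795, 770, 610 and 671 CPM in the next 5% and 804, 863, 765 and 812 CPM in cells ranked 10 to 20%, against 88.1, 109, 108 and 110 CPM in cells at 0. The histone gene HIST1H4C, a replication-dependent H4 gene, was higher in cells ranked 10 to 20% (727, 617, 1216 and 1131 CPM) than in the highest 5% (299, 189, 312 and 597 CPM) in every library.

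**Figure D3:**
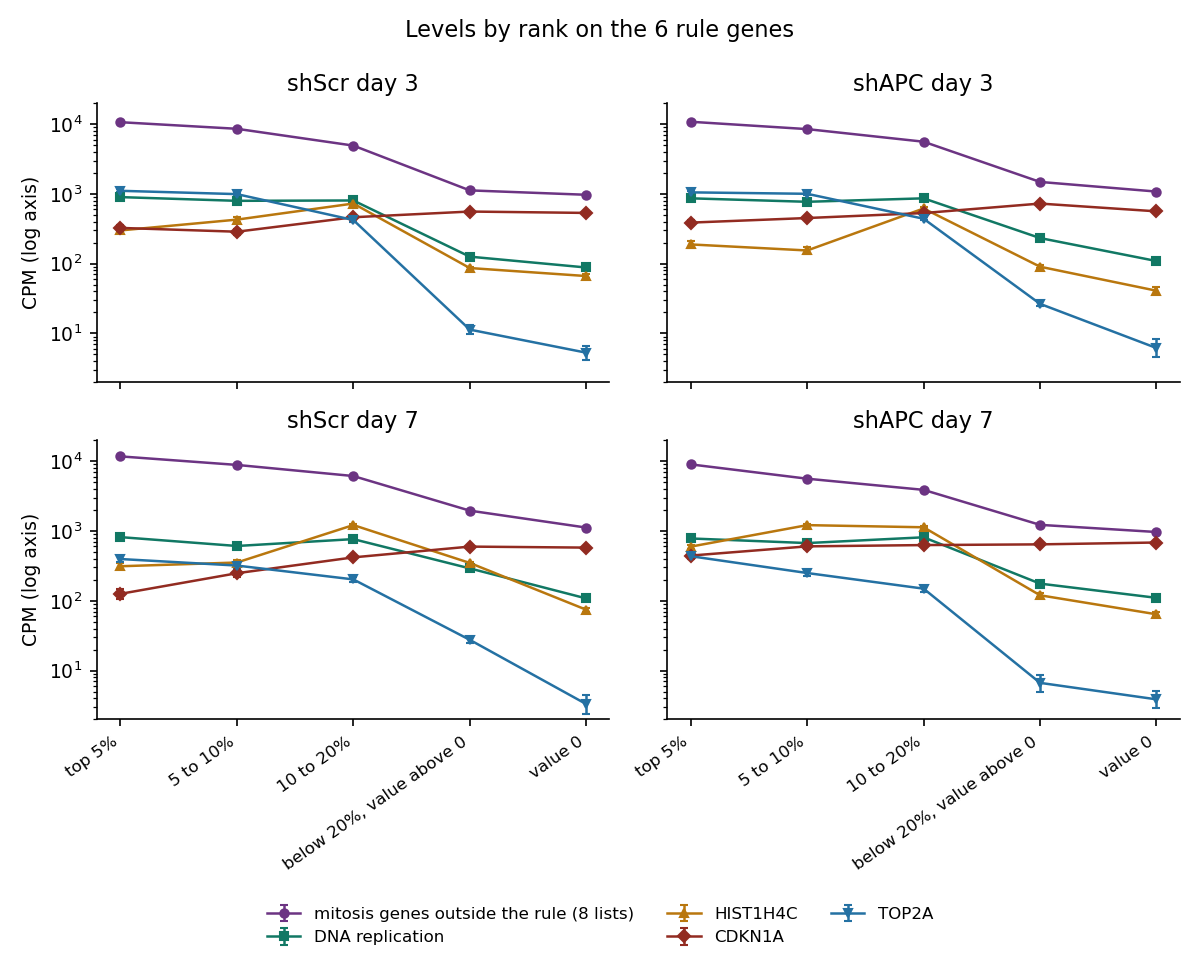
Level in CPM (log axis) of 2 gene groups and 3 genes over bins of cells ranked by their share of UMIs from the 6 rule genes, 1 panel per library; error bars are 95% counting intervals. The mitosis genes fall from the highest 5% of cells to those at 0, while DNA replication genes stay between 610 and 899 CPM down to rank 20% and are lower below it.

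Histones as a list had 3 of 10 genes higher and 1 lower by at least 2-fold in all 4 libraries. H2AFZ, the variant H2A.Z, stood at 1619, 1364, 2059 and 1573 CPM against 359, 388, 642 and 452 CPM. HIST1H2AC, an H2A gene with polyadenylated transcripts in non-dividing cells, was the gene with the lowest place on the ranking, at 4.11, 30.2, 8.76 and 14.7 CPM against 27.4, 135, 64.4 and 85.2 CPM. HIST1H4C had no common size, with ratios of 1.36, 0.38, 0.09 and 2.22. Histone mRNAs that end without a poly(A) tail are caught poorly by this assay, so their levels depend on the tailed part.

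Of the 16 measured CDK inhibitors and p53 targets, 0 were at least 2-fold apart in all 4 libraries in either direction, and the median differences were 0.03, -0.19, -0.61 and -0.03. CDKN1A (p21), the CDK inhibitor induced by p53, stood at 306, 421, 185 and 523 CPM in G2/M-high cells against 538, 666, 572 and 665 CPM. Its ratios were -0.82, -0.66, -1.63 and -0.35, lower in each library and most so in shScr day 7. CDKN2A (p16), which inhibits CDK4, stood at 495, 482, 587 and 327 CPM against 368, 446, 377 and 249 CPM in this CDK4-immortalised line. CDKN2C (p18), an inhibitor of the same family, was under the level in other cells and had ratios of 3.22, 2.61, 2.43 and 2.67. Of the 6 G1 cyclins and CDKs, 0 were 2-fold apart in all 4 libraries. CCND1, cyclin D1, stood at 385, 364, 387 and 386 CPM against 387, 455, 445 and 447 CPM.

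The 23 genes lower in all 4 libraries were of mixed kinds. SOD2, the mitochondrial superoxide dismutase that NF-kB induces, stood at 61.3, 90.4, 75.2 and 57.0 CPM against 253, 203, 269 and 129 CPM. HMOX1, haem oxygenase, stood at 7.27, 16.4, 5.17 and 9.05 CPM against 24, 84.3, 14.8 and 47.5 CPM. CYP1B1, an enzyme induced by the aryl hydrocarbon receptor, stood at 67.3, 99.1, 35.4 and 287 CPM against 238, 346, 369 and 703 CPM. LIF, a cytokine, had ratios of -3.27, -2.04, -1.76 and -1.99. VCAM1, an adhesion molecule, had -2.30, -1.69, -1.83 and -1.64, and AREG, an EGF receptor ligand, had -1.30, -1.32, -3.07 and -1.41. The other genes among the 15 lowest were USP53, AC090877.2, LURAP1L, KRTAP1-5, ABCA1, HIST3H2A, CLIP3 and LINC02015.

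As lists, CXC chemokines and NF-kB genes had median differences of -1.15, -0.70, -0.53 and -0.42 with 2 of 10 genes at least 2-fold lower in all 4 libraries, and AP-1 and stress genes had -0.31, -1.06, -0.51 and -0.32 with 0 of 11. Interferon-stimulated genes had -0.21, -0.28, -0.02 and -0.24 with 0 of 7. Collagen and matrix genes lay at -0.24, -0.28, -0.33 and -0.18 with 0 of 15. Glycolysis genes lay at 0.47, 0.28, 0.34 and 0.27 (0 of 10), and cholesterol and fatty acid synthesis at 0.35, 0.37, 0.22 and 0.16 (0 of 11), both close to the shift of all genes.

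Between shRNAs, the G2/M-high cells of shAPC were set against those of shScr on the same day. Genes were taken at 10 CPM over the mean of both libraries. At day 3, 130 of 7209 genes (1.8%) were at least 2-fold higher and 67 (0.929%) lower under shAPC in G2/M-high cells, against 305 (4.23%) and 26 (0.361%) in the other cells. The median of all genes was then 0.04 in G2/M-high and 0.31 in other cells, and the counts were not corrected for it. At day 7, 152 of 6740 (2.26%) were higher and 155 (2.3%) lower in G2/M-high cells, against 46 (0.682%) and 99 (1.47%) in the others. Of the 130 genes higher at day 3, 76 (58.5%) were also among the 305 of the other cells (24.9% of those). Of the 152 higher at day 7, 27 (17.8%) were among the 46 of the others (58.7%). G2/M-high cells sum to fewer UMIs (2512767 to 3163820 per library, against 24637639 to 35749166), which widens their counting error, and the 2 Cell Ranger versions in the file headers coincided with the shRNA, so that shRNA, library and version cannot be told apart.

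At day 3, mitosis genes in the chosen cells were level between the shRNAs. Both sets of cells were chosen by mitotic mRNA, at cuts of 0.0642% of UMIs in shScr and 0.0664% in shAPC. Level sums in them therefore cannot show whether the mitotic programme differed. The mitosis lists summed to 9568 CPM in G2/M-high cells of shAPC and 9586 CPM of shScr, a log2 ratio of -0.00 (-0.03 to 0.02). The same genes in the other cells gave 0.32, close to the median of all genes there (0.31, against 0.04 in G2/M-high cells). TOP2A stood at 1025 and 1048 CPM (-0.03, -0.10 to 0.04). DNA replication genes summed to 814 and 846 CPM (-0.06, -0.13 to 0.02).

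At day 7, the mitosis lists summed to 7325 CPM in shAPC and 10340 CPM in shScr, a log2 ratio of -0.50 (-0.52 to -0.47), and the other cells gave -0.55, with medians of all genes of -0.04 and -0.06. The rule took cells down to a lower share in shAPC day 7. With 1 cut for all libraries (52 and 118 cells) the ratio was -0.13, so the size of the difference depended on the cut. At 10% per library, CKS2 stood at 329 and 805 CPM (-1.29, -1.41 to -1.18), while TOP2A stood at 343 and 359 CPM (-0.07, -0.20 to 0.07), and with 1 cut TOP2A was higher under shAPC, at 421 and 340 CPM (0.31, 0.16 to 0.45). FOXM1 had a ratio of 0.20 (-0.10 to 0.50) and DNA replication genes together 0.02 (-0.07 to 0.11). Mitotic genes thus did not differ by 1 common factor between the libraries of day 7.

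**Figure D4:**
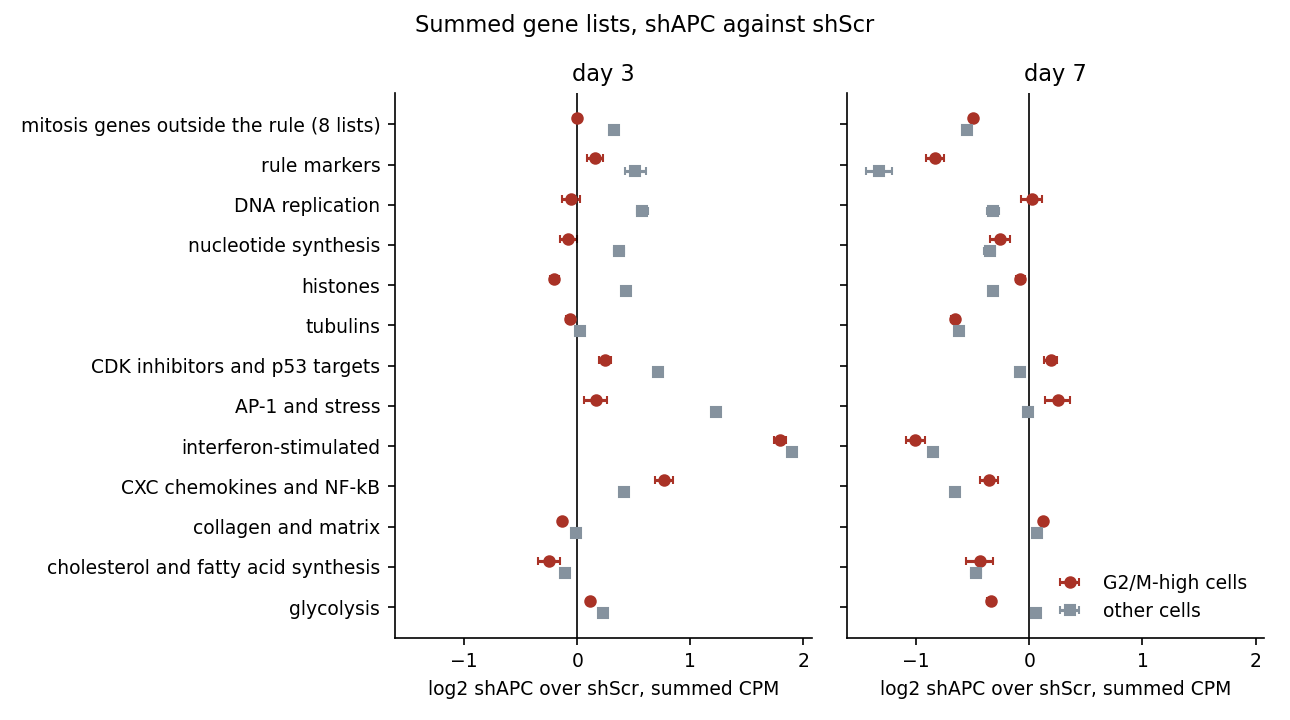
Log2 ratio of summed CPM, shAPC over shScr, for gene lists in G2/M-high cells (red circles) and other cells (grey squares), day 3 on the left and day 7 on the right; error bars are 95% counting intervals. Interferon-stimulated genes are higher under shAPC at day 3 (1.79 in G2/M-high cells) and lower at day 7 (-1.01), and AP-1 and stress genes differ between the classes at day 3 (0.16 against 1.23).

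CDKN1A and several other p53 targets were higher under shAPC in G2/M-high cells at day 7. CDKN1A stood at 523 CPM in G2/M-high cells of shAPC and 185 CPM of shScr, a log2 ratio of 1.5 (1.35 to 1.65), with per-cell medians of 368 and 140 CPM. In the other cells it stood at 665 and 572 CPM (0.22), and the difference of the ratios was 1.28 (1.12 to 1.43, counting error). MDM2, the ubiquitin ligase that p53 induces against itself, stood at 77.7 and 29.8 CPM (1.38, 0.99 to 1.78) in G2/M-high cells and at 67.4 and 62.8 CPM in the others. ZMAT3, an RNA-binding p53 target, stood at 89.0 and 39.8 CPM (1.16, 0.82 to 1.51), against 0.14 in the others. Of 19 measured CDK inhibitors and p53 targets, 8 were at least 2-fold higher and 0 lower under shAPC in G2/M-high cells, and 0 of 19 in the other cells. The list's median was 0.41, against -0.04 for all genes, while its summed UMIs gave only 0.19 (0.13 to 0.25), since abundant members went the other way, such as CDKN2A (-0.84) and BAX (-0.40).

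The choice of cells bore on these values. Taken with the common cut, CDKN1A stood at 442 and 255 CPM (0.79, 0.64 to 0.94), ZMAT3 at 79.1 and 50.3 CPM (0.65, 0.30 to 1.01) and MDM2 at 77.0 and 29.7 CPM (1.38, 0.97 to 1.79). MDM2 therefore kept its ratio, and the ratio of CDKN1A fell below 2-fold. Without the cells also high in DNA replication genes (64 and 74 left), CDKN1A had 1.29 (1.12 to 1.47) and MDM2 1.28 (0.82 to 1.76). At day 3 the list's median was 0.45 and its sum 0.24 in G2/M-high cells, with 2 of 20 genes at least 2-fold higher. The other cells gave 0.70, 0.71 and 7 of 20. Relative to the median of all genes (0.04 in G2/M-high and 0.31 in other cells), the list's medians were 0.41 and 0.39. The list was therefore not shifted at day 7 alone. At day 3, CDKN1A stood at 421 and 306 CPM in G2/M-high cells (0.46, 0.34 to 0.58) and MDM2 at 118 and 57.5 CPM (1.04, 0.78 to 1.30).

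HIST1H4C had the largest difference between the classes at day 7. It stood at 903 CPM in G2/M-high cells of shAPC and 332 CPM of shScr (1.44, 1.33 to 1.56), and at 194 and 311 CPM in the other cells (-0.68). No single cell held over 9.94% of its UMIs, and the per-cell medians were 340 and 182 CPM. Under the common cut the levels were 586 and 532 CPM (0.14, 0.02 to 0.26), lower in shAPC and higher in shScr than with the cut of each library. At day 3 the ratio was -1.10 (170 and 365 CPM), but 1 cell held 25.2% of the shScr UMIs, and without the cells also high in DNA replication genes the ratio was 0.21 (-0.02 to 0.45).

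Interferon-stimulated genes, which respond to double-stranded RNA and interferon, were higher under shAPC at day 3 in both G2/M-high and other cells. In G2/M-high cells 17 of 18 measured genes were at least 2-fold higher and 0 lower, the median was 2.07 against 0.04 for all genes, and their sum was 4296 CPM in shAPC and 1242 CPM in shScr (1.79, 1.74 to 1.84). The other cells gave 17 of 18 and a log2 ratio of sums of 1.90. MX1, an antiviral GTPase, stood at 114 and 9.80 CPM (3.55, 3.02 to 4.13), IFI6 at 726 and 83.8 CPM (3.12, 2.93 to 3.31) and IFIT1, which binds foreign RNA, at 173 and 29.4 CPM (2.56, 2.24 to 2.89). At day 7 the list was lower under shAPC, with 3 of 9 genes at least 2-fold lower and a log2 ratio of sums of -1.01 (-1.09 to -0.93), against -0.85 in the other cells. IFI6 then stood at 24.5 and 96.3 CPM, and IFI27 at 77.0 and 287 CPM.

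At day 3, several stress response genes had a smaller shAPC over shScr ratio in G2/M-high cells than in the other cells. DDIT3 (CHOP), a transcription factor of the integrated stress response, stood at 13.8 CPM in G2/M-high cells of shAPC and 13.3 CPM of shScr (0.06, -0.59 to 0.71). In the other cells it stood at 194 and 16.6 CPM (3.54). GADD45A, a growth-arrest gene, stood at 118 and 76.8 CPM in G2/M-high cells (0.62, 0.39 to 0.86) and at 501 and 71.6 CPM in the others (2.81), a difference of -2.18 (-2.42 to -1.94), although 1 cell held 32.6% of the UMIs of the shAPC G2/M-high cells. SLC3A2, an amino acid transporter chain induced by the same response, stood at 85.9 and 66.1 CPM in G2/M-high cells (0.38, 0.11 to 0.65) and at 264 and 49.9 CPM in the others (2.40). RSRC2 had ratios of 0.13 and 1.96. The AP-1 and stress list summed to 530 and 474 CPM in G2/M-high cells (0.16, 0.06 to 0.26; 1 of 12 genes at least 2-fold higher) and to 1260 and 539 CPM in the others (1.23; 7 of 12). Under the common cut DDIT3 stood at 13.9 and 12.7 CPM and GADD45A at 113 and 75.4 CPM, and without the cells also high in replication genes DDIT3 stood at 15.8 and 13.4 CPM. GADD45A without those cells stood at 138 and 65.0 CPM, a ratio over 2-fold (1.08, 0.76 to 1.41).

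Other genes named by size at day 3 were lower in G2/M-high cells of shAPC. PLAT, tissue plasminogen activator, stood at 17.4 and 73.6 CPM (-2.08, -2.54 to -1.65), against -0.24 in the other cells, and ANKRD1, a target of YAP, at 35.1 and 139 CPM (-1.99, -2.30 to -1.68), against -0.37. FGF5, SDC4 and PALLD had ratios of -1.78, -1.70 and -1.66. CXCL8 (interleukin 8) was higher, at 212 and 60.1 CPM, but 1 cell held 45.7% of the shAPC UMIs. STC1, a secreted glycoprotein, stood at 266 and 70.2 CPM (1.92, 1.71 to 2.14), against 0.93 in the other cells, and 1 cell held 42.8% of its UMIs in shScr. CDA (0.52, against -0.42) and IFI44L (2.82, against 1.70) also had a higher ratio in G2/M-high cells, as did CCL2 (0.42, against -0.59), of which 1 cell held 71.0% of the UMIs.

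At day 7, CYP1B1 had the highest ratio, at 287 CPM in shAPC and 35.4 CPM in shScr (3.02, 2.70 to 3.35), against 703 and 369 CPM in the other cells (0.93). Under the common cut it was 245 and 45.9 CPM (2.41, 2.13 to 2.70). The non-coding host genes SNHG19 (168 and 39.8 CPM) and SNHG9 (101 and 25.9 CPM), SUGCT (71.7 and 18.3 CPM) and the matrix protein TGFBI (338 and 95.5 CPM) followed. The lowest was SAA1, an acute-phase protein, at 23.4 and 201 CPM (-3.11, -3.51 to -2.72), with 30.2% of the shScr UMIs in 1 cell. PTX3, a pentraxin of innate immunity, stood at 255 and 889 CPM (-1.80) and SNRPD1, a spliceosome core protein, at 115 and 388 CPM (-1.76). PCOLCE, an enhancer of collagen processing, was lower in G2/M-high cells (35.1 and 62.9 CPM, -0.84) and higher in the others (25.7 and 16.5 CPM, 0.64), and PFDN6, DCAF13, LAPTM4A and PLAUR had ratios of -1.14, -1.26, -0.43 and -1.27, against 0.06, -0.16, 0.55 and -0.30.

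Between days, which share the libraries used above, 24 of 6687 genes (0.359%) were at least 2-fold higher and 138 (2.06%) lower at day 7 in G2/M-high cells of shScr, and 31 of 7235 (0.428%) higher and 241 (3.33%) lower in those of shAPC. In the other cells of shScr, 24 (0.359%) were higher and 41 (0.613%) lower, and in those of shAPC, 6 (0.0829%) were higher and 421 (5.82%) lower. The median of all genes was -0.08 in G2/M-high and 0.05 in other cells of shScr, and -0.18 and -0.34 in those of shAPC. The mitosis lists summed to a log2 ratio of 0.11 in shScr and -0.39 in shAPC. TOP2A was lower at day 7 under both shRNAs, at 359 against 1048 CPM in shScr and 343 against 1025 CPM in shAPC. In G2/M-high cells of shAPC, all 18 measured interferon-stimulated genes were at least 2-fold lower at day 7, with a ratio of sums of -2.62. EGR1, an immediate early gene, stood there at 55.1 CPM at day 7 and 17.0 CPM at day 3 (1.69, 1.23 to 2.17), and at 64.4 and 94.4 CPM in the other cells. In G2/M-high cells of shScr, CXC chemokines and NF-kB genes were higher at day 7 (4 of 11 genes at least 2-fold, ratio of sums 0.82, against 0.38 in the other cells), and G0S2, an inhibitor of lipolysis, stood at 35.8 CPM at day 7 and 160 CPM at day 3 (-2.16), against 91.1 and 87.6 CPM in the others. G0S2 had a UMI in only 15 of 76 G2/M-high cells of shScr day 3, and 1 of them held 39.1% of its UMIs.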

How the data were processed

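The authors sequenced droplet 3′ libraries of 4 samples and deposited, per the labels and file headers, raw UMI counts per gene and barcode made with Cell Ranger and STAR on GRCh38. The matrix headers name version 3.0.2 for shScr and 3.0.0 for shAPC. The labels and a supplement of the study name the version 2 kit, and its methods a later one. The labels name retrovirus and the methods lentivirus, so the virus is uncertain. Columns of other samples numbered 0.

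Here, UMIs of the cells of a class were summed per library and scaled to CPM (Python 3.11.15, numpy 2.4.6, scipy 1.17.1, pandas 2.3.3). Counts of genes and list medians used log2(CPM + 1), genes at or over 10 CPM and a 2-fold difference. Single genes and sums have plain log2 ratios with 95% exact conditional binomial intervals, and differences of ratios have Poisson intervals, for counting error only. With 1 library per group no p-value was computed. A difference of CPM compares shares of the mRNA of a class. No doublet caller was run. An alternative left out the 5% of cells with the most UMIs. Other alternatives changed the share of cells, the cut, the filters, the rule genes, the minimum level, the pseudocount and the scaling (edgeR 4.0.16 TMM and DESeq2 1.42.0 size factors in R 4.3.3). The scripts were tested on simulated data.

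Genes were named by these rules: the rule genes; 2 to 4 of the most abundant genes of each list and those a comparison turned on; the 15 highest and 15 lowest by their smallest difference over the 4 libraries; and, per day, the 5 highest and 5 lowest between shRNAs, also relative to the other cells, at or over 50 CPM. DDIT3, BUB1, TTK, NDC80, AURKB, EGR1 and G0S2 were named after their values were seen, as were the genes read under other choices of cells. The cells, gene lists and tests were chosen with earlier results of these data known.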

Additional observations from a re-analysis of the deposited data

Results flagged for a closer look

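Between days, 4 values changed sign in the G2/M-high cells under the same contrast of shAPC over shScr, and with 1 library per group the difference was not tested. The interferon-stimulated genes summed had a log2 ratio of 1.79 at day 3 and -1.01 at day 7. Of these genes, IFI6 had 3.12 and -1.97, and IFI27 had 1.75 and -1.90. HIST1H4C had -1.10 at day 3 and 1.44 at day 7. With 1 cut for all libraries HIST1H4C had -0.78 and 0.14, and without the cells also high in DNA replication genes it had 0.21 and 1.14, so its sign at day 3 depended on the cells chosen.

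Cells left out by the filter on mitochondrial UMIs also carried the mRNA of G2 and mitosis. Among barcodes with at least 2000 genes and 5% or more mitochondrial UMIs, those at or over the cut of their library were 14 of 115 in shScr day 3 (12.2%, 95% exact binomial interval 6.82 to 19.6%), 19 of 127 in shAPC day 3 (15%, 9.25 to 22.4%), 22 of 520 in shScr day 7 (4.23%, 2.67 to 6.34%) and 60 of 1220 in shAPC day 7 (4.92%, 3.77 to 6.29%). The day 3 shares were above those of day 7, a difference that was not tested across libraries. Each share was taken at its own library's cut, and these cuts ran from 0.0323% to 0.0733% of UMIs, so the shares have no common threshold. Among barcodes under 2000 genes, 86 of 591 (14.6%), 49 of 339 (14.5%), 233 of 2190 (10.6%) and 77 of 891 (8.64%) were at or over the cut. In such shallow barcodes few UMIs suffice to pass it.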

How the results depend on the processing

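No paired analysis was possible because the labels give no replicate numbers and each group holds 1 library; an additive fit of shRNA and day over the 4 libraries, which has 1 residual degree of freedom, was not run. Over 23 settings, 169 main values stayed within the spread over libraries, the counting interval of a sum or 1.5 times a count. A further 52 moved beyond that and 0 were labelled reversed. Counts of genes could not be labelled so, nor could the day 3 sum of mitosis genes, whose interval held 0. For 30 genes named by their difference from other cells, and 24 ratios of genes and lists between shRNAs, the numbers were 1001, 145 and 0. Each of the 24 ratios was judged by its counting interval. The 24 ratios did not include, among others, HIST1H4C, CDKN1A, MDM2, ZMAT3, GADD45A and DDIT3. Without cells also high in replication genes, the day 3 ratio went from -1.10 to 0.21 for HIST1H4C and from 0.54 to -0.08 for ZMAT3. Leaving out each library in turn was run for the 5 values of G2/M-high against other cells. It gave 151 to 188 genes higher (143 with all 4) and 24 to 31 lower (23). Such counts could only stay or rise, since a gene then had to pass in fewer libraries. Mitosis genes stood at 2.58 to 2.77 and replication genes at 1.76 to 1.99. The mean log2 ratio of UMIs per cell was -0.20 and became -0.10 without shScr day 3. Comparisons between libraries cannot lose a library. The minimum level set the counts, since it changes how many genes are measured: at 50 CPM, 27 genes were higher and 7 lower in all 4 libraries, and 47, 66, 30 and 69 were 2-fold apart between shRNAs at day 3, between shRNAs at day 7, between days in shScr and between days in shAPC (197, 307, 162 and 272 at 10 CPM), and at 1 CPM these were 341 higher, and 643, 1040, 713 and 833. At 1 CPM the mean of the medians of mitosis genes was 2.94. With a pseudocount of 5 CPM, 11 genes were lower, 109, 163, 65 and 149 were 2-fold apart, and the mean for mitosis genes was 2.47. With TMM and DESeq2 factors, 38 and 37 genes were lower, mitosis genes stood at 2.41 and 2.45, and their sum between shRNAs at day 3 at -0.0820 and -0.0804.

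Fewer or more cells moved counts: with 5% of cells 299, 543 and 413 genes were 2-fold apart in the first 3 comparisons, with 20% of cells 9 genes were lower, 193 (day 7) and 100 (shScr between days) were 2-fold apart, and replication genes stood at 2.47. Ranking on a part of the UMIs and reading the rest gave 293 and 425 genes between days, and ranking on cells thinned to 5000 UMIs gave 14 lower. Without cells also high in replication genes, an alternative chosen after seeing the data, mitosis genes stood at 2.36, replication genes at 1.36, and 297 (day 3) and 266 (shScr between days) genes were 2-fold apart.

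The sum of mitosis genes between shRNAs at day 3 (-0.00) ranged around 0: 0.0208 with 5% of cells, 0.0896 with 20%, -0.0390 with a mitochondrial limit of 10%, 0.0216 without CENPF in the rule, 0.0263 with thinned ranking and 0.0681 without replication-high cells. At day 7 (-0.50) it was -0.38 with 5% of cells, -0.55 with 20%, -0.13 with 1 pooled cut, -0.60 with the limit of 10%, -0.55 with thinned ranking, -0.46 with ranking on a part of the UMIs, -0.47 as a mean over cells and -0.39 without mitochondrial and ribosomal protein genes in the totals. The pooled cut takes fewer shAPC and more shScr cells; for the other settings the cause was not tested. Depth limits genes of few UMIs in 58 to 94 cells per library.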
